A study of Rattus norvegicus with 20 samples.

Results

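The airway secretory proteins and mucins were followed as 10 named genes in whole lung RNA of rats. They are the secretoglobins Scgb1a1, Scgb3a1 and Scgb3a2, the BPI-fold proteins Bpifa1 and Bpifb1, the gel-forming mucins Muc5b and Muc5ac, the membrane-bound mucins Muc1 and Muc4, and the trefoil peptide Tff2. They were chosen by name, and 9 of the 10 were among the 19060 genes of the table. Tff2 was not analysed here. Of the 9, 6 had enough counts to be tested (Scgb1a1, Scgb3a1, Scgb3a2, Bpifb1, Muc5b and Muc1), and Bpifa1, Muc5ac and Muc4 are given as counts.

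Each library came from the lung of 1 rat, with 5 rats in each of 4 groups. Sham rats had their abdomen opened and the caecum handled, with no ligation or puncture. CLP rats underwent caecal ligation and puncture, which releases gut bacteria into the abdomen and served as a model of acute respiratory distress syndrome. Sham+VNS and CLP+VNS rats had the same 2 operations together with right cervical vagus nerve stimulation, which applies current to that nerve at the neck. No genetic change is named for any group. The sources used here do not state strain, age, sex, stimulation settings or when tissue was collected after the operation. A piece of lung holds a varying share of conducting airway beside alveoli, so a marker score of ciliated cells is reported beside the members throughout.

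The cells lining the conducting airways secrete the fluid and mucus that trap inhaled particles and microbes, and cilia carry this layer towards the throat. Club cells make secretoglobins, small proteins abundant in airway lining fluid, and goblet and gland cells make the gel-forming mucins. BPI-fold proteins belong to the host defence of the lining fluid in larger airways. Membrane-bound mucins stay on the cell surface, and Muc1 is carried by alveolar type 2 cells as well as by airway cells.

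Promoter sequences are shown for 3 members that varied together between libraries (Scgb1a1, Scgb3a1 and Bpifb1) and for Muc1, which varied apart from them. Each is the 250 bases before the gene's start in RefSeq's GRCr8 assembly, written 5′ to 3′ along the gene. RefSeq promoter entries matched 7 of the 10 members. Capitals mark matches to any of 4 motifs. They are CTCAAG, the core of the site of NKX2-1, a lung epithelial factor, then TGTTTAC or TATTTAC, a forkhead core, then TTNCNNAA, a loose C/EBP consensus, each on both strands, and TATAAA, the TATA box, on the gene's strand. No match overlapped another.
Scgb1a1, chr1:215409687-215409936, minus strand: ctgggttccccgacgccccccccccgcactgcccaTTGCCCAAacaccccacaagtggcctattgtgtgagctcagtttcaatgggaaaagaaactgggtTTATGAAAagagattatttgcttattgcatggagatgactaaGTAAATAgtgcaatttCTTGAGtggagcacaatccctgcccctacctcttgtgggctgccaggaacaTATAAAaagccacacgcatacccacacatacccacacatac
Scgb3a1, chr10:34468916-34469165, plus strand: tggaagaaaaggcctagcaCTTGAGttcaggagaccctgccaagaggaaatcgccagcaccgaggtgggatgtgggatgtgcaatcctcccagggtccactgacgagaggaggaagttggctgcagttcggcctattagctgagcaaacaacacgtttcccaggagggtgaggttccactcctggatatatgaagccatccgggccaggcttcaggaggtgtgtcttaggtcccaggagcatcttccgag
Bpifb1, chr3:163132901-163133150, plus strand: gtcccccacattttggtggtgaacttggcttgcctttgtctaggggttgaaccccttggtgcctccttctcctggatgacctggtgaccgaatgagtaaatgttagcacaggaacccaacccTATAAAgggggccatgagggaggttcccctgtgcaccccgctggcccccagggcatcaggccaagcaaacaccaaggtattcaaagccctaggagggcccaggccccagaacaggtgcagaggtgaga
Muc1, chr2:176933500-176933749, plus strand: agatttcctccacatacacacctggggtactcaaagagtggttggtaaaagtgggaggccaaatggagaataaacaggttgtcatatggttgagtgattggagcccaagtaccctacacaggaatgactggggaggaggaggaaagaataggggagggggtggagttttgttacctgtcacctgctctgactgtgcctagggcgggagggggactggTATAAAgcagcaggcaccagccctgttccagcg
The Scgb1a1 window held all 4 motifs, with a TATA box 41 bases and an NKX2-1 core 92 bases before the start. The forkhead match lay 108 bases before the start, and the C/EBP matches lay 150 and 215 bases before it. The Scgb3a1 window held the NKX2-1 core, 231 bases before the start, and none of the other 3. In Bpifb1 and Muc1 the TATA box was the single match, at 128 and 33 bases. Over 33469 RefSeq promoter windows of this length, 13.3% held the NKX2-1 core, 6.14% the forkhead core, 37.2% the C/EBP letters and 8.06% the TATA box. These matches describe letters and were not tested as binding sites.

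Levels between genes are compared on the authors' TPM scale, which accounts for transcript length. Scgb1a1, the main secretory product of club cells, ranked first among all genes in 15 of 20 libraries and second in the other 5. It took 0.317% to 0.869% of all counts of a library. Its mean TPM was 44035 in Sham, 55283 in Sham+VNS, 43214 in CLP and 56875 in CLP+VNS. Scgb3a2, a secretoglobin of club cells, followed with means of 334, 559, 353 and 520 TPM in the same order. The mean of Muc1 was 165 TPM in Sham, 165 in Sham+VNS, 115 in CLP and 106 in CLP+VNS. Scgb3a1, a secretoglobin of larger airways, had means between 9.36 TPM in CLP and 45.9 in CLP+VNS, and Bpifb1, a BPI-fold protein of airway goblet and gland cells, between 3.71 and 9.11 TPM in the same groups. Muc5b, the gel-forming mucin needed for mucus clearance, stood below these at 0.588 to 1.20 TPM. Between Scgb3a1 and Bpifb1 the ranges over libraries overlapped, and in CLP+VNS replicate 3 Scgb3a1 reached 158 TPM, above the 104 TPM of Muc1 there. Library totals ran from 13729646 to 14453181 counts.

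Per library, levels are given in CPM, counts scaled to the usual library size after TMM scaling, in the order of replicate number (1 to 5 in Sham and Sham+VNS, 1, 3, 4, 5 and 6 in CLP, and 1, 3, 5, 8 and 11 in CLP+VNS). Scgb1a1 stood at 3087, 3539, 5533, 5266 and 6447 CPM in Sham and at 5435, 7669, 6402, 4542 and 6167 CPM in Sham+VNS. It stood at 4097, 6020, 4190, 4948 and 5695 CPM in CLP and at 4861, 8745, 6510, 6096 and 6488 CPM in CLP+VNS. All 4 groups overlapped, the lowest library was Sham replicate 1 and the highest CLP+VNS replicate 3. The mean was 4774 ± 1413 CPM in Sham and 4990 ± 865 CPM in CLP, and with stimulation 6043 ± 1163 CPM in Sham+VNS and 6540 ± 1404 CPM in CLP+VNS (SD, n = 5 each).

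Scgb3a2 had a larger coefficient of variation than Scgb1a1 in Sham (52.5% against 29.6%), Sham+VNS (54.0% against 19.2%) and CLP+VNS (38.6% against 21.5%), and a smaller one in CLP (13.6% against 17.3%). It was 8.61, 15.9, 12.9, 21.3 and 33.8 CPM in Sham and 23.4, 53.9, 43.4, 11.8 and 24.4 CPM in Sham+VNS. It was 17.2, 24.4, 19.6, 19.5 and 22.4 CPM in CLP and 17.5, 49.9, 28.8, 28.9 and 27.9 CPM in CLP+VNS. The highest library was Sham+VNS replicate 2, followed by CLP+VNS replicate 3. The mean was 18.5 ± 9.71 CPM in Sham, 20.6 ± 2.81 CPM in CLP, 31.4 ± 17.0 CPM in Sham+VNS and 30.6 ± 11.8 CPM in CLP+VNS. The CLP libraries lay closest together, at a highest-to-lowest ratio of 1.42 against 3.92 in Sham.

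Scgb3a1 was near the limit of detection in most libraries. Its counts were 4, 4, 0, 13 and 20 in Sham, 4, 29, 10, 7 and 5 in Sham+VNS, 2, 12, 2, 6 and 2 in CLP, and 3, 85, 7, 10 and 17 in CLP+VNS. Of 242 counts over the 20 libraries, CLP+VNS replicate 3 gave 85 and Sham+VNS replicate 2 gave 29.

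Bpifb1 had the widest spread of the tested members without a count of 0. Its counts were 3, 38, 9, 56 and 182 in Sham and 4, 351, 135, 24 and 42 in Sham+VNS. They were 28, 107, 45, 35 and 39 in CLP and 37, 365, 49, 65 and 84 in CLP+VNS. Within Sham the highest library was 59.4 times the lowest in CPM, within Sham+VNS 86.8 times, and within CLP 3.78 times. CLP+VNS replicate 3 and Sham+VNS replicate 2 again led.

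Muc5b was 4.66, 3.29, 6.46, 4.71 and 5.25 CPM in Sham and 6.26, 17.9, 5.90, 6.07 and 9.79 CPM in Sham+VNS. It was 5.50, 6.43, 9.20, 6.82 and 5.73 CPM in CLP and 4.70, 22.2, 8.44, 7.91 and 8.43 CPM in CLP+VNS. The same 2 libraries stood above the rest, which lay between 3.29 and 9.79 CPM.

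**Figure D1:**
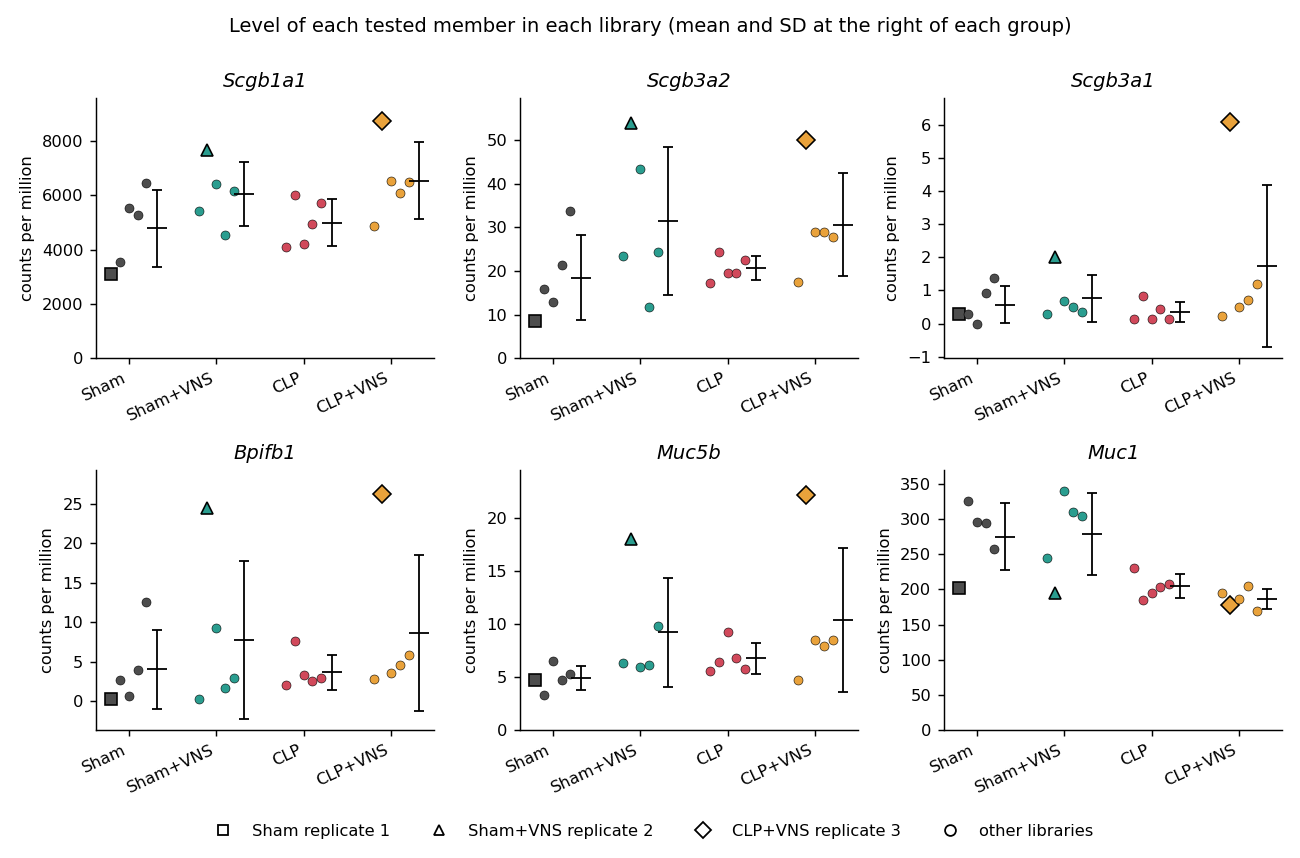
Level of the 6 tested members in each of 20 libraries, in CPM on the vertical axis, by group, with the mean and SD of 5 libraries at the right of each group. CLP+VNS replicate 3 (diamond) was highest for Scgb1a1, Scgb3a1, Bpifb1 and Muc5b, while Muc1 was lower in most CLP and CLP+VNS libraries than in most Sham and Sham+VNS libraries.

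The libraries that led for the secretory genes also held the most ciliated cell RNA. The summed level of 22 ciliated markers was 370 to 739 CPM in Sham and 435 to 554 CPM in CLP, against 518 to 924 CPM in Sham+VNS and 513 to 873 CPM in CLP+VNS. It was highest in Sham+VNS replicate 2, next in CLP+VNS replicate 3, and lowest in Sham replicate 1. The score used here, the mean log2 CPM of the 21 tested markers, passed no test between groups. It was 0.36 higher in CLP+VNS than in CLP (exact two-sided permutation test, p = 0.0556, adjusted p = 0.222 over 4 comparisons) and 0.38 higher in Sham+VNS than in Sham (p = 0.294, adjusted p = 0.587). Each of the 21 markers had a positive log2 fold change in both comparisons, and edgeR called none of them, with lowest adjusted p-values of 0.230 and 0.622. In whole lung RNA, fewer cells of a type and less RNA per cell cannot be told apart.

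Within groups, the level of the secretory members followed this score. Each library's deviation from its group mean in log2 CPM was set against the deviation of the score over the 20 libraries, with 100000 permutations within groups and adjustment over the 6 members. Pearson's r was 0.92 for Scgb1a1, with Spearman's rho 0.94 and a permutation p of 1e-05 for both, the smallest these permutations can give (adjusted p = 6e-05). For Scgb3a2 r was 0.91 and rho 0.83 (permutation, adjusted p = 9e-05 and 0.00078). Both club cell products thus rose and fell with ciliated markers from rat to rat.
Bpifb1 had r = 0.84 and rho = 0.76 (permutation, adjusted p = 0.00078 and 0.00408). Scgb3a1 had r = 0.70 and rho = 0.58 (permutation, adjusted p = 0.00490 and 0.0205), and Muc5b had r = 0.63 and rho = 0.58 (permutation, adjusted p = 0.00958 and 0.0205). Muc1 did not rise with the score, at r = -0.20 and rho = -0.26 (permutation, adjusted p = 0.518 and 0.350). Its r depended on single libraries, from -0.66 without Sham replicate 1 to 0.15 on leaving out 1 library.
Without Sham replicate 1 and Sham+VNS replicate 2, the libraries farthest from the median score, r was 0.91 for Scgb1a1, 0.86 for Scgb3a2, 0.76 for Scgb3a1, 0.71 for Bpifb1, 0.62 for Muc5b and -0.44 for Muc1. The first 5 still passed, with permutation adjusted p-values between 0.00012 and 0.0382.

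**Figure D2:**
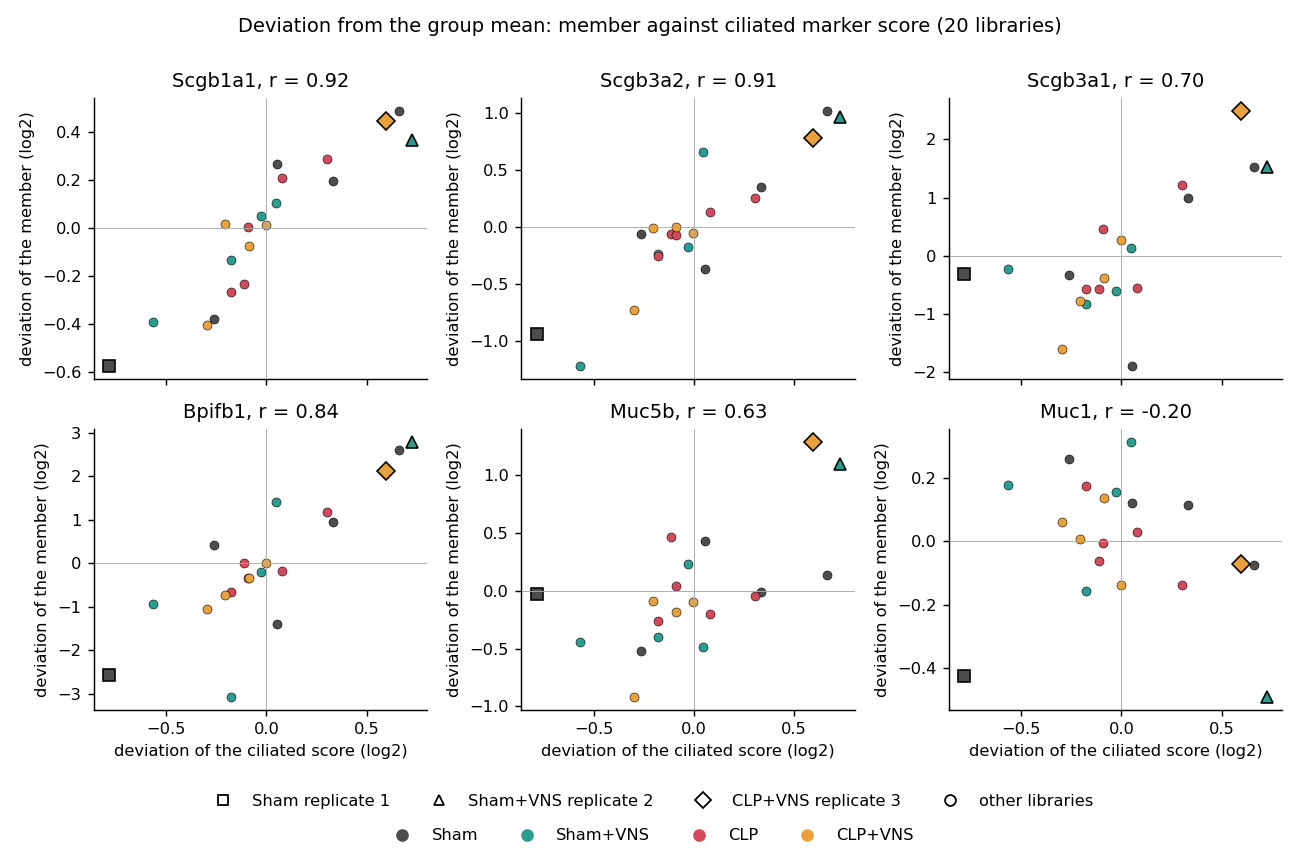
Deviation of each tested member from its group mean (vertical axis, log2 CPM) against the deviation of the ciliated marker score (horizontal axis, log2 CPM) in 20 libraries, coloured by group. Scgb1a1 and Scgb3a2 lie along a rising line (r = 0.92 and 0.91), Bpifb1, Scgb3a1 and Muc5b rise with more scatter, and Muc1 (r = -0.20) does not rise.

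The secretory members also varied with each other in these deviations. Scgb3a2 had r = 0.83 with Scgb1a1 and 0.84 with Bpifb1, and Bpifb1 had r = 0.78 with Scgb3a1. Muc1 had negative r with all 5 others, from -0.48 with Muc5b to -0.04 with Bpifb1. Of all tested genes, Cyp2s1 and Kng2l1 were among the 3 closest to Scgb1a1 (r = 0.95 and 0.94). Closest to Scgb3a2 were Agbl2, Agr3 and Mlf1 (r = 0.95, 0.94 and 0.94), and closest to Scgb3a1 were Aldh1a1, Ccdc17 and Ttll3 (r = 0.91, 0.90 and 0.88). Bpifb1 was nearest to T2, Tspan1 and Sidt1 (r = 0.88 for each). Muc5b was nearest to Fam216a, Neurl1 and Erich5 (r = 0.86, 0.82 and 0.82), and Muc1 to Ggact, Dram1 and Hfe (r = 0.92 for each). These r values, over 20 libraries that share group centring and scaling, are descriptions.

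Against the CLP operation, Muc1 was the single member called. It stood at 202, 326, 296, 294 and 258 CPM in Sham and at 230, 185, 195, 203 and 208 CPM in CLP. It stood at 245, 194, 341, 309 and 305 CPM in Sham+VNS and at 194, 177, 187, 205 and 169 CPM in CLP+VNS. The groups overlapped through Sham replicate 1 in the first pair and Sham+VNS replicate 2 in the second. These libraries also held the most summed adipocyte marker RNA, at 1742 and 472 CPM beside 20.1 to 143 CPM in the other 18, and ranked 1 and 2 of 20 for summed airway cartilage markers. In Sham replicate 1 the cartilage sum was 41.4 CPM, of which Ucma alone gave 21.6 CPM. The cartilage genes Col2a1, Acan and Matn1, picked after their values were seen, had 4, 0 and 0 counts there. Sham replicate 1 was highest for mesothelial markers as well, at 1788 CPM, and the part of these markers in the Muc1 result was not tested. The mean of Muc1 was 275 ± 47.5 CPM in Sham and 204 ± 16.9 CPM in CLP, and 279 ± 58.5 CPM in Sham+VNS and 187 ± 14.0 CPM in CLP+VNS (SD, n = 5 each).
Muc1 fell by 0.43 ± 0.13 (log2 fold change ± SE, here and below) in CLP against Sham, with a 95% interval of -0.70 to -0.15 (edgeR, adjusted p = 0.0137). It fell by 0.58 ± 0.13 in CLP+VNS against Sham+VNS, with an interval of -0.85 to -0.31 (edgeR, adjusted p = 0.00253). The CLP difference with stimulation minus that without was -0.15 ± 0.18 (edgeR, adjusted p = 0.881), with an interval of -0.54 to 0.23. Thus 1 of 6 tested members was called in each of these comparisons, where 40.3% of all 14794 tested genes were called in CLP against Sham (20.5% lower) and 27.3% in CLP+VNS against Sham+VNS (13.4% lower). The fall of Muc1 was therefore 1 among 3029 lower genes in the first comparison and 1984 in the second. No tested member had groups that did not overlap in CPM, as 26.1% and 18.9% of all tested genes did. Leaving out any 1 library kept both calls, with log2 fold changes from -0.52 (without Sham replicate 1) to -0.36 (without Sham replicate 2) and from -0.69 to -0.50. With the replicate number as a block, neither call was kept (edgeR, adjusted p = 0.0657 and 0.0638). That block fits CLP replicate 6 and CLP+VNS replicates 8 and 11 by themselves, since no other library has their number, so they add nothing to it.

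Muc1 was also read against Sftpc, the surfactant protein made by alveolar type 2 cells, a ratio chosen after the Muc1 values had been seen. There were 21.1, 22.7, 20.6, 20.4 and 19.3 Muc1 counts per 1000 Sftpc counts in Sham and 16.7, 13.3, 14.7, 15.1 and 14.9 in CLP. The ratio was 16.0, 18.4, 21.5, 21.3 and 19.8 in Sham+VNS and 14.0, 15.2, 13.7, 14.7 and 15.4 in CLP+VNS. On this scale neither pair of groups overlapped, and Sham replicate 1 and Sham+VNS replicate 2 lay with the libraries of their own groups. In CPM, 26.1% and 18.9% of all tested genes had groups that did not overlap, and this share was not computed for ratios to Sftpc. Groups of 5 that do not overlap always give the smallest exact p, so the exact tests below add nothing to this.
The ratio in CLP was 0.718 times that in Sham, and in CLP+VNS 0.754 times that in Sham+VNS (exact two-sided permutation test, p = 0.00794 each, the smallest that 5 against 5 can give, adjusted p = 0.0159 over 4 comparisons). It was 0.978 times in CLP+VNS against CLP and 0.931 times in Sham+VNS against Sham (exact permutation, adjusted p = 0.635 and 0.370). Sftpc itself did not pass in CLP against Sham, at 0.05 ± 0.12 (edgeR, adjusted p = 0.775), or in CLP+VNS against Sham+VNS, at -0.16 ± 0.12 (adjusted p = 0.352). Against the summed CPM of 12 alveolar type 2 markers, Muc1 was 0.639 and 0.675 times as high in the same 2 CLP comparisons (exact permutation, adjusted p = 0.0159 each). Of those 12 markers 4 rose in CLP against Sham (Sftpb by 0.69, Napsa by 0.39, Slc34a2 by 0.36 and Ctsh by 0.71), which enters this ratio, and none fell. Their summed level was 35344 to 53034 CPM in Sham and 51560 to 54878 CPM in CLP, lowest in Sham replicate 1.
The within-group deviations of Muc1 followed the alveolar type 2 score, with r = 0.85 and rho = 0.81 (permutation, adjusted p = 0.00048 and 0.00078 over the 6 members). The other 5 members had negative r with that score, from -0.59 for Scgb3a1 to -0.11 for Scgb1a1, and none passed (permutation, lowest adjusted p = 0.0544). Without the 2 libraries farthest from the median of that score, again Sham replicate 1 and Sham+VNS replicate 2, r of Muc1 was 0.63 (permutation, adjusted p = 0.0259). Scgb3a1 then passed at -0.73 (permutation, adjusted p = 0.0278), and the remaining members were negative and did not pass.

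**Figure D3:**
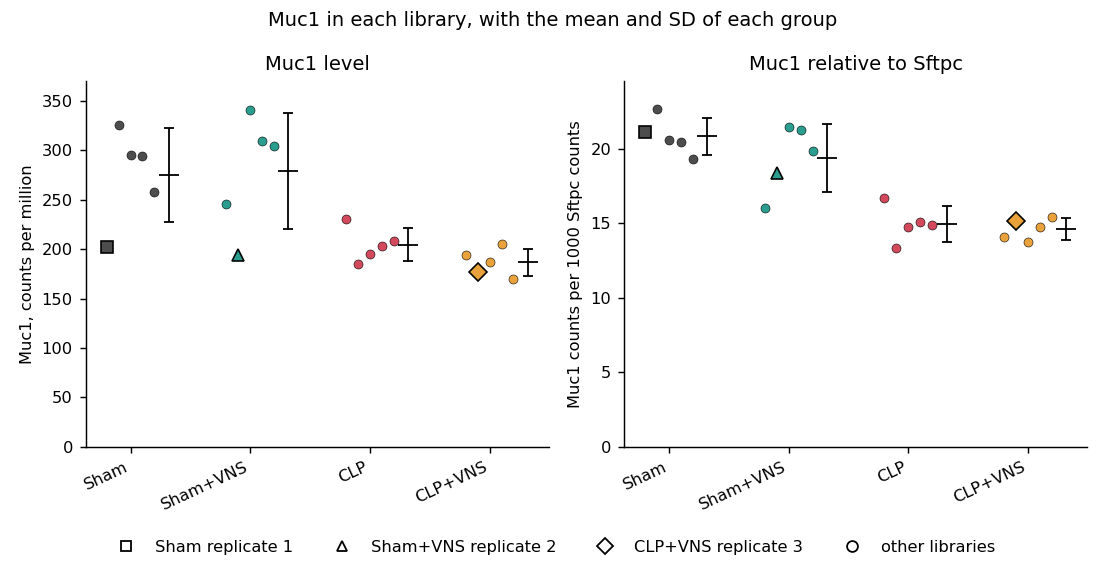
Muc1 in each of 20 libraries by group, as CPM (left) and as Muc1 counts per 1000 Sftpc counts (right), with the mean and SD of 5 libraries at the right of each group. In the right panel Sham spans 19.3 to 22.7 and CLP 13.3 to 16.7, and Sham+VNS spans 16.0 to 21.5 and CLP+VNS 13.7 to 15.4.

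No secretoglobin, BPI-fold protein or gel-forming mucin was called with the CLP operation. Scgb1a1 differed by 0.06 ± 0.20 in CLP against Sham (95% interval -0.35 to 0.47) and by 0.11 ± 0.20 in CLP+VNS against Sham+VNS (-0.29 to 0.52). The intervals of Scgb3a2 ran from -0.63 to 0.94 and from -0.80 to 0.73. Those of Bpifb1 ran from -2.17 to 1.90 and from -1.75 to 2.06, so a change of several fold in either direction lay within them. Muc5b differed by 0.47 ± 0.37 and 0.17 ± 0.36, and Scgb3a1 by -0.72 ± 1.00 and 1.18 ± 0.80. Adjusted p-values of these 5 members in edgeR ran from 0.307 (Scgb3a1 in CLP+VNS against Sham+VNS) to 0.959. The median log2 fold change of the 6 tested members was -0.04 in CLP against Sham and 0.13 in CLP+VNS against Sham+VNS, and that of all tested genes was -0.01 in both.

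**Figure D4:**
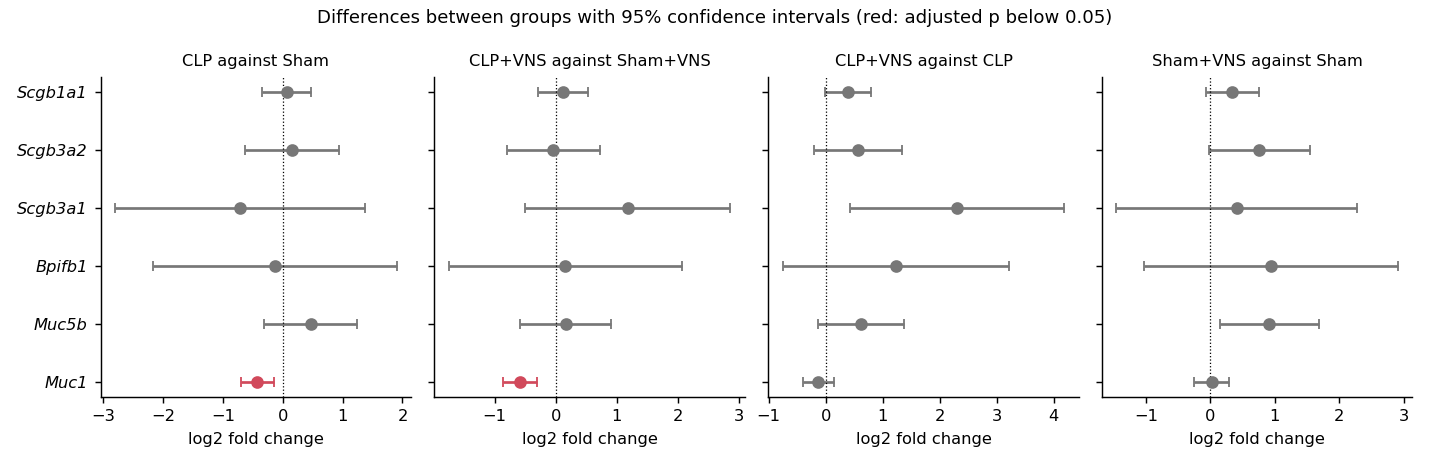
Log2 fold change (horizontal axis) of each tested member in 4 comparisons, with approximate 95% confidence intervals computed from edgeR's F statistic, red where the adjusted p is below 0.05. Muc1 lies below 0 in both CLP comparisons (-0.43 and -0.58), and the intervals of Scgb3a1 and Bpifb1 are the widest.

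With vagus nerve stimulation no member was called. Of all tested genes edgeR called 0.0270% in CLP+VNS against CLP, which is 4 genes, and 0% in Sham+VNS against Sham. Groups that did not overlap in CPM were found for 2.26% and 0.798% of tested genes and for 0 of the 6 members. At an unadjusted p below 0.05 the numbers were 1927 and 1185 genes, and DESeq2 called 138 and 6, no member among them. The means of the 5 secretory members were higher with stimulation in both comparisons. In CLP+VNS against CLP, Scgb1a1 differed by 0.39 ± 0.20, Scgb3a2 by 0.57 ± 0.37 and Bpifb1 by 1.23 ± 0.95. Muc5b differed by 0.62 ± 0.36 and Scgb3a1 by 2.31 ± 0.90, the last with the lowest adjusted p of these members (edgeR, 0.284).
In Sham+VNS against Sham, Scgb1a1 differed by 0.34 ± 0.20, Scgb3a2 by 0.76 ± 0.37 and Bpifb1 by 0.94 ± 0.94. Muc5b differed by 0.91 ± 0.37 and Scgb3a1 by 0.41 ± 0.89, with edgeR adjusted p-values of 0.605 and 0.922. Muc1 differed by -0.13 ± 0.13 and 0.02 ± 0.13 in the 2 comparisons. The median over the 6 tested members was 0.59 in both comparisons, beside 0.00 and -0.01 over all tested genes, and 0.40 and 0.36 over the 21 ciliated markers. These comparisons share their libraries with the CLP comparisons above. For none of the 6 members did the interaction pass in edgeR, where 0% of tested genes were called, 1217 had an unadjusted p below 0.05 and DESeq2 called 6.

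Single libraries carried much of these differences. Without CLP+VNS replicate 3, the difference in CLP+VNS against CLP was 0.26 for Scgb1a1, 0.32 for Scgb3a2, 0.20 for Bpifb1, 0.13 for Muc5b and 0.92 for Scgb3a1. These were the lowest values on leaving out 1 library. The highest were 0.47 for Scgb1a1, 0.71 for Scgb3a2 and 0.79 for Muc5b without CLP+VNS replicate 1. For Bpifb1 and Scgb3a1 they were 1.68 and 2.95, without CLP replicate 3. Without Sham+VNS replicate 2, the difference in Sham+VNS against Sham was 0.48 for Scgb3a2, 0.52 for Muc5b, -0.17 for Bpifb1 and -0.33 for Scgb3a1, so the sign of the last 2 turned. Scgb1a1 was lowest there without Sham replicate 1, at 0.21, and 0.47 without Sham replicate 5.
With the ciliated score as a covariate, the differences of the secretory members in CLP+VNS against CLP were 0.11 ± 0.09 for Scgb1a1, 0.01 ± 0.17 for Scgb3a2, -0.41 ± 0.49 for Bpifb1, 0.14 ± 0.30 for Muc5b and 0.76 ± 0.62 for Scgb3a1. In Sham+VNS against Sham they were 0.09 ± 0.09, 0.24 ± 0.17, -0.28 ± 0.50, 0.44 ± 0.31 and -0.55 ± 0.60 in the same order. The SEs of these 5 members were smaller than without the score in both comparisons, and edgeR called no secretory member in any of the 5 comparisons. Muc1 kept its calls, at -0.43 ± 0.13 in CLP against Sham (adjusted p = 0.0135) and -0.58 ± 0.13 in CLP+VNS against Sham+VNS (adjusted p = 0.00292). The score is itself measured in these libraries, and whether stimulation or the piece of lung taken moved it cannot be told apart.

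The other 3 members stayed below the count filter. Bpifa1, a BPI-fold protein of nasal and large airway lining, had 396 counts in all, of which 303 came from Sham+VNS replicate 4, 62 from CLP+VNS replicate 3 and 25 from CLP replicate 1. Of the other libraries 13 had a count of 0, among them all 5 Sham libraries, and the remaining 4 had 1 to 3 counts. A count of 0 allows up to 3 counts in a library. The 3 libraries with Bpifa1 ranked 14, 2 and 19 of 20 for summed ciliated markers, 15, 4 and 9 for summed basal cell markers, and 3, 10 and 14 for summed airway cartilage markers. Sham+VNS replicate 4 also held 31 of the 50 counts of Col2a1, 15 of the 19 of Acan and 12 of the 13 of Matn1. These cartilage genes were picked from the 13 summed markers after their values were seen. Ucma, another of those markers, was highest in a Sham library, at 21.6 CPM. Sham replicate 1 and Sham+VNS replicate 2, ranked 1 and 2 for the cartilage sum, had 0 and 3 Bpifa1 counts. The part of cartilage genes in the Bpifa1 result was not tested.
Muc5ac, the gel-forming mucin of goblet cells in surface epithelium, had 46 counts in all. Its counts were 4, 1, 0, 0 and 5 in Sham, 3, 3, 4, 7 and 1 in Sham+VNS, 3, 2, 0, 1 and 8 in CLP, and 1, 1, 0, 1 and 1 in CLP+VNS. Muc4, a membrane-bound mucin of airway epithelium, had 54 counts in all and never more than 5 in a library. Among 12 exact two-sided permutation tests of mean CPM over these 3 genes, the lowest p was 0.0317, for Muc5ac in CLP+VNS against Sham+VNS (0.0576 against 0.253 CPM), with an adjusted p of 0.381. For Muc5ac and Muc4 no difference was detectable at this depth.

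**Figure D5:**
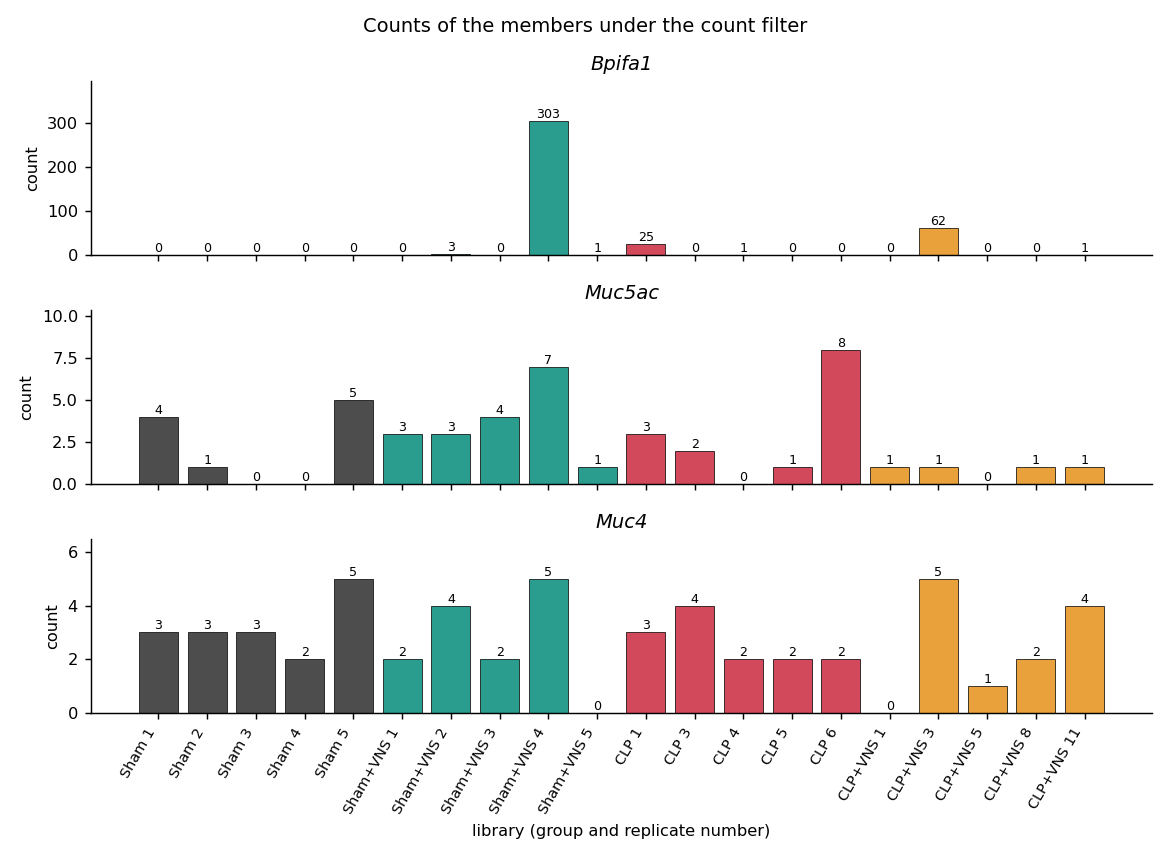
Counts (vertical axis) of Bpifa1, Muc5ac and Muc4 in each of 20 libraries, coloured by group and named by group and replicate number. Bpifa1 counts sit in Sham+VNS replicate 4 (303), CLP+VNS replicate 3 (62) and CLP replicate 1 (25), and no library exceeds 8 for Muc5ac or 5 for Muc4.

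Transcript counts were split for Bpifb1 and Bpifa1, and each other member had 1 transcript in the table. For Bpifb1 the transcript NM_001077680 held 43.0% of the gene's 351 counts in Sham+VNS replicate 2 and 46.7% of 365 in CLP+VNS replicate 3, and XM_006235355 the rest. In Sham replicate 5, the next highest library at 182 counts, it held 8.35%. In Sham+VNS replicate 3 and CLP+VNS replicate 11, with 135 and 84 counts for the gene, it held 66.2% and 73.7%. It was at 0 in 3 CLP libraries, with 107, 35 and 39 counts for the gene, in Sham+VNS replicate 5 (42 counts) and in Sham replicate 3 (9 counts). The share thus varied within every group, and no test was made.

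Other genes of the secretory programme came from lists. Their counts stand beside a background of 19.8% of all tested genes higher and 20.5% lower in CLP against Sham, and 13.9% higher and 13.4% lower in CLP+VNS against Sham+VNS, and nothing particular to a list is read from them. Of 13 tested club cell genes other than the members, 3 rose in CLP against Sham and 1 fell, with a median of -0.07 beside -0.01 over all tested genes. Among those that rose, Cldn10, a tight junction protein, was higher by 1.01 ± 0.19 and Cyp4b1, an oxidising enzyme, by 0.44 ± 0.14. Aldh1a1, which makes retinoic acid, fell by 1.28 ± 0.22 (edgeR, adjusted p = 0.000122) and was the gene closest to Scgb3a1 between rats. In CLP+VNS against Sham+VNS 2 rose and 3 fell, the latter being Aldh1a1, the cytochrome Cyp2b1 and the lung epithelial factor Nkx2-1, which fell by 0.33 ± 0.07.
Of 13 tested other mucin and mucus cell genes, 2 rose in CLP against Sham, Creb3l1 by 0.69 ± 0.20 and Galnt6, which starts mucin glycosylation, by 0.44 ± 0.15, and 1 fell, beside 40.3% of all tested genes called. The gene that fell was Muc16, a membrane-bound mucin also made by mesothelium, by 1.81 ± 0.54 (edgeR, adjusted p = 0.0128). It was uneven in Sham, at 65.3 ± 66.3 CPM (SD, n = 5) and 17.5 to 180 CPM. In CLP it ran from 13.0 to 31.4 CPM, so the groups overlapped. Of the 7 mesothelial markers other than Muc16, 3 fell in the same comparison (Upk1b, Krt19 and Gpm6a), with summed levels of the 7 at 471 to 1608 CPM in Sham and 624 to 826 CPM in CLP, and their part in the Muc16 result was not tested. The mucus cell genes Spdef, at -0.27 ± 0.14, and Agr2, at -0.62 ± 0.51, named after their values were seen, did not pass.

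Of 11 tested other defence proteins of the airway lining, 3 rose in CLP against Sham and 2 fell, beside 40.3% of all tested genes called. Reg3g, a lectin that kills bacteria, was at 0 to 0.0706 CPM in Sham and 20.6 to 63.2 CPM in CLP. Lcn2, which binds bacterial iron carriers, rose by 3.81 ± 0.80, and Slpi, a protease inhibitor, by 2.51 ± 0.32 from 12.8 ± 3.90 to 72.7 ± 25.5 CPM (SD, n = 5 each). Duox1, an epithelial oxidase, fell by 1.00 ± 0.39 and Lgals3bp by 0.41 ± 0.14. Neutrophil markers rose in 12 of 12 cases, with summed levels of 359 to 885 CPM in Sham and 3019 to 4952 CPM in CLP, and neutrophils also make Lcn2 and Slpi. Their part in these results was not tested.
Among 26 regulators of secretory cells, 12 rose and 1 fell in CLP against Sham, with a median of 0.15, beside 40.3% of all tested genes called and a median of -0.01. In CLP+VNS against Sham+VNS 6 rose and 1 fell, with a median of 0.00, beside 27.3% called. The largest rises in CLP against Sham were Cebpd (1.54 ± 0.15), the growth factor Ereg (1.44 ± 0.52), the interleukin 4 receptor Il4r (1.12 ± 0.09) and Cebpb (0.94 ± 0.10). Ereg was low, at 0.0691 to 0.979 CPM in Sham and 0.500 to 2.26 CPM in CLP, and its groups overlapped. Notch3 fell by 0.53 ± 0.09. Of 19 tested genes of granule release and airway ion transport, 9 rose and 1 fell in CLP against Sham, beside the same 40.3%. Stx3 (0.80 ± 0.07), Rab27a (0.57 ± 0.12), Slc26a9 (0.57 ± 0.16) and Snap23 (0.53 ± 0.10) rose most, and Marcks fell by 0.24 ± 0.09. None of the 82 tested genes of these 5 lists was called in CLP+VNS against CLP or in Sham+VNS against Sham.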

How the data were processed

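Lung RNA of 20 rats was sequenced, 1 library per rat, and groups and replicate numbers came from the sample labels. Per the file headers, the authors deposited FPKM, TPM and read counts per gene and transcript, with a normalized signal that was not used here. The counts the authors deposited are estimated counts, not scaled between libraries and 91.5% of them whole, and they were rounded here to whole numbers. The libraries were poly(A)-selected and strand-specific, per the labels' protocols. The assembly was mRatBN7.2, per the submitters' processing notes. No source used here names the aligner, the counting program or the annotation, so how reads shared by similar genes were divided is unknown. TPM values were taken as the authors deposited them.

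Genes with at least 10 counts by edgeR's filterByExpr (14794 of 19060) were fitted with edgeR's quasi-likelihood test (TMM scaling, 20 libraries, 16 residual degrees of freedom), adjusted by Benjamini-Hochberg over all tested genes, and called at an adjusted p below 0.05. The edgeR test was checked on simulated data for CLP against Sham and CLP+VNS against Sham+VNS only. The stimulation comparisons, the interaction, the permutation tests and the correlations were not checked in this way. Members under the filter were compared by exact permutation tests. Per-library log2 values used a prior count of 2. The ciliated score is the mean log2 CPM of 21 markers. Alternatives were other scalings and filters, DESeq2, limma on log2(TPM + 1), marker scores as covariates, the replicate number as a block, and leaving out libraries. Floors cover counting error only, and edgeR intervals cover the spread between rats.

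Named genes were the 10 members, up to 4 called genes per list and direction, and the 3 genes closest to each tested member, and 2 genes that this rule names are not reported here. The ratios of Muc1 to alveolar markers were added later. Members and lists were chosen with earlier results of these data known. Versions were R's edgeR 4.0.16, DESeq2 1.42.0 and limma 3.58.1, and Python 3.11.15 with SciPy 1.17.1. The 5 rats of a group are separate animals. Batch and collection day are not given.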

Additional observations from a re-analysis of the deposited data

Results flagged for a closer look

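Among 35 combinations of a member and a group, those whose libraries were not all equal, 9 held a library that stood apart from the other 4 by Dixon's criterion. The criterion's rate of about 1 in 20 holds for normally distributed values. Several of these members had skewed counts near 0, so the 9 are not read as an excess. CLP+VNS replicate 3 was such a library for 4 members, as the highest of its group, at 6.10 CPM for Scgb3a1, 26.2 CPM for Bpifb1, 22.2 CPM for Muc5b and 4.45 CPM for Bpifa1. It ranked 2 of 20 for summed ciliated markers. Sham+VNS replicate 2, which ranked 1 for those markers, stood apart for Scgb3a1 at 2.02 CPM. Sham+VNS replicate 4 stood apart for Bpifa1 at 21.6 CPM, and CLP replicate 1 at 1.79 CPM. CLP replicate 3 stood apart for Bpifb1 at 7.56 CPM. For Muc5ac, CLP+VNS replicate 5 was the lowest of its group at 0 CPM, where the other 4 libraries had 1 count each. The combinations are not independent, since the members share libraries.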

How the results depend on the processing

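Muc1 kept its fall and its call in 20 of 21 alternatives in each CLP comparison, and no alternative called another member in any comparison. The exception was the replicate block, under which 0 members were called in both. Muc1 was then at -0.45 in CLP against Sham (edgeR, adjusted p = 0.0657) and -0.57 in CLP+VNS against Sham+VNS (0.0638), and 2109 genes were called in the latter. The block called 0 genes in CLP+VNS against CLP. It takes no information from the libraries numbered 6, 8 and 11, each the only library of its number. Equal replicate numbers showed no sign of pairing the rats over all tested genes. The 22 same-number pairs of libraries had a median correlation of deviations of 0.004, 3 of them over 0.1. The 128 other pairs had a median of -0.009, 21 of them over 0.1. Batch is not given, so whether some same-number libraries shared one cannot be told from these values.

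Differences that turned sign were not called in any setting. With the basal cell score as a covariate, added after the data were seen, Scgb1a1 was -0.0341 in CLP against Sham. In CLP+VNS against Sham+VNS Scgb1a1 was -0.0447, Scgb3a1 -0.0707, Bpifb1 -0.73 and Muc5b -0.0866. Of the 3 tested genes in that score, 1 was itself called higher and 1 lower in CLP against Sham. Their log2 fold changes ran from -1.04 to 4.01, so these turns are not read as a part of basal cells. Bpifb1 in CLP against Sham was 0.30 with the replicate block, 0.55 with the ciliated score and 0.26 by limma. Scgb3a2 in CLP+VNS against Sham+VNS was 0.0785 with the replicate block, 0.0518 with the ciliated score and 0.00136 without the Sham+VNS 2 and CLP+VNS 3 libraries, also added after the data were seen. With the ciliated score Bpifb1 was -0.41 in CLP+VNS against CLP, and in Sham+VNS against Sham it was -0.28 and Scgb3a1 -0.55. Without those 2 libraries they were -0.17 and -0.33. Muc1 in Sham+VNS against Sham was -0.00524 by limma.

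Leaving out 1 library at a time gave these ranges. In CLP against Sham, Bpifb1 ran from -0.59 to 0.96, Scgb1a1 from -0.0609 to 0.20 and Scgb3a2 from -0.0273 to 0.49. In CLP+VNS against Sham+VNS, Bpifb1 ran from -0.88 to 1.27, Muc5b from -0.32 to 0.56, Scgb1a1 from -0.0139 to 0.21, Scgb3a1 from -0.21 to 1.92 and Scgb3a2 from -0.28 to 0.25. In Sham+VNS against Sham, Bpifb1 ran from -0.17 to 2.03, Muc1 from -0.0785 to 0.13 and Scgb3a1 from -0.33 to 1.03. The r of Muc1 with the ciliated score ran from -0.66 (without Sham replicate 1) to 0.15. In mean CPM, Bpifa1 ran from -4.57 to 0.834 in CLP+VNS against Sham+VNS and from -0.354 to 0.885 in CLP+VNS against CLP. Muc5ac ran from -0.0323 to 0.115 in CLP against Sham. Muc4 ran from -0.0587 to 0.0318, from -0.0632 to 0.0265 and from -0.0861 to 0.00317 in CLP+VNS against Sham+VNS, CLP+VNS against CLP and Sham+VNS against Sham.

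Genes called in CLP+VNS against CLP numbered 0 to 277 on leaving out 1 library, 138 by DESeq2, 1 with the ciliated score, and 0 by library totals, with only the groups compared, with the basal score, by limma and without the Sham+VNS 2 and CLP+VNS 3 libraries. In Sham+VNS against Sham they numbered 0 to 2, 6 by DESeq2 and 1 with only the groups compared, and for the interaction 0 to 3 and 6 by DESeq2. The r of the members with the basal score and with the cartilage score, 3 tested genes each, passed for 0 members. With the cartilage score it was -0.38 for Scgb1a1, -0.22 for Scgb3a2 and -0.0796 for Bpifb1. The cause was not tested.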
